A study of Homo sapiens with 8 samples.

Results

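The line-dependent part of the doxycycline response is the interaction between line and doxycycline, taken for each gene as its log2 change in 231BrM minus its log2 change in the arrays labelled SKBrM3. A positive value means that the gene fell less, or rose more, in 231BrM. The 45253 of 49386 probe sets that map to 1 gene name 18239 genes, and each gene was read from the brightest of its probe sets. Of these genes 13002 passed a filter on low values (above 4.41 on the log2 scale on at least 2 arrays) and were tested, and 12182 of those were expressed in both lines, with a mean above that level over the 4 arrays of each line.

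The data are 8 Affymetrix arrays in 4 groups of 2: 231BrM without doxycycline, 231BrM with it, and the same pair for SKBrM3. 231BrM and SKBrM3 are the names of brain-metastatic derivatives of the human breast cancer lines MDA-MB-231 and SK-BR-3. All 4 groups carry a doxycycline-inducible short hairpin against the receptor tyrosine kinase MET, and treated cells received doxycycline for 48 h, with 100 ng stated and no volume. A doxycycline group lacking the hairpin is not among the samples, so what the drug does and what the hairpin does cannot be told apart. Whether replicates are separate cultures is not stated, and the p-values then cover the spread among these arrays only, possibly a technical one.

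MET is the receptor of hepatocyte growth factor and signals through RAS and ERK, PI3K and SRC. CXCL1, CXCL2, CXCL3 and CXCL8 encode CXC chemokines that attract neutrophils through the receptors CXCR1 and CXCR2. Their genes lie in 1 cluster on chromosome 4, and their transcription is known to respond to NF-kB, AP-1 and interleukin-1. Tumour cells release them, and in breast cancer they are studied for recruitment of myeloid cells and for exchange with astrocytes in the brain.

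Of the 13002 genes tested, 3 passed for the interaction at a limma adjusted p under 0.05 (0.0231%), and all 3 were expressed in both lines (0.0246% of 12182). They were CXCL8, CXCL1 and CXCL2, and each fell in both lines but further in the SKBrM3-labelled arrays. No gene passed in the negative direction, where 560 genes (4.31%) had an unadjusted p under 0.05, against 892 (6.86%) in the positive direction. That balance depends on the treated 231BrM arrays: without replicate 1 the counts were 1404 negative (10.8%) and 965 positive (7.42%), and without replicate 2 they were 914 (7.03%) and 2304 (17.7%). limma-trend and a fit to arrays centred on their medians each called 1 gene in the negative direction, EHHADH. When every probe set was tested on its own, in place of 1 per gene, 0 passed in either direction.

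The promoter windows of the 3 genes, from RefSeq on GRCh38.p14 (250 bases before to 50 after the start), are shown because the genes moved together. CXCL1 lies at chr4:73869143-73869442 (plus strand), CXCL2 at chr4:74099146-74099445 (minus strand) and CXCL8 at chr4:73740319-73740618 (plus strand). Capitals mark exact matches, searched on both strands. The strings searched were the NF-kB consensus GGGRNWYYCC, marked in the first pair, and the AP-1 motif TGANTCA, marked in the last. In them R is A or G, W is A or T, Y is C or T, and N is any base.
CXCL1: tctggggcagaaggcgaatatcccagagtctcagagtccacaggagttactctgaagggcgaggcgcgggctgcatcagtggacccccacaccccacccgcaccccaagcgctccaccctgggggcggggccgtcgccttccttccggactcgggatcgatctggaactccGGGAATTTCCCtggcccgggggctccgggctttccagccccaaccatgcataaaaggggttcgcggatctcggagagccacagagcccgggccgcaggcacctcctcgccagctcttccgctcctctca
CXCL2: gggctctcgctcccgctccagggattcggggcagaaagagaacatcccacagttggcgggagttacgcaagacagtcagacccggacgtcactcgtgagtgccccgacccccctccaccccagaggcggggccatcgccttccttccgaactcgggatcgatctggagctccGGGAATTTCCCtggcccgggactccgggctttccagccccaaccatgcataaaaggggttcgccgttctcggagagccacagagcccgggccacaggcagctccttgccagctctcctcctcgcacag
CXCL8: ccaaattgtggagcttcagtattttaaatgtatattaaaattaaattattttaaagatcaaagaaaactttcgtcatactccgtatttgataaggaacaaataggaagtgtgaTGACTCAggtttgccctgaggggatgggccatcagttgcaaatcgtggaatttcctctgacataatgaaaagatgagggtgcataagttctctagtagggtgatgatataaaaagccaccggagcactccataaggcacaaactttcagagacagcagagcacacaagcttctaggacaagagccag
The CXCL1 and CXCL2 windows carry the same 11 capital letters, which hold 2 overlapping matches each, starting at -79 and -78 from the transcription start in CXCL1 and at -78 and -77 in CXCL2. The CXCL3 window also holds 2 matches and that of CCL20 holds 1, while those of CXCL8, IL1B and MET hold no exact match. The CXCL8 window holds tggaatttcc, which departs from the consensus in its first base only. Near matches were not counted. CXCL8 has its AP-1 match at -137. Over all 35116 windows of this length, 5.91% hold the NF-kB consensus and 7.71% hold TGANTCA. A match describes these letters only.

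CXCL8 encodes interleukin-8. Its log2 values were 11.73 and 11.72 in 231BrM and 10.69 and 10.79 with doxycycline, and 11.45 and 11.39 in SKBrM3 and 9.10 and 9.22 with doxycycline. The control arrays of the lines lay close together, and the treated SKBrM3 arrays lay below every other array. The fall was 1.98-fold in 231BrM and 4.79-fold in the SKBrM3-labelled arrays. The interaction was 1.27 (standard error 0.114, 95% interval 1.01 to 1.53, limma adjusted p = 0.0114), a ratio of 2.42 between the fold changes. The lines differed by 0.31 before doxycycline and by 1.58 with it (231BrM minus SKBrM3, log2).

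CXCL1, a ligand of CXCR2, gave 11.54 and 11.61 in 231BrM, 10.93 and 10.88 with doxycycline, 10.11 and 10.15 in SKBrM3, and 7.90 and 8.07 with doxycycline. The 4 groups did not overlap, and all 4 arrays of 231BrM lay above all 4 labelled SKBrM3. It fell 1.59-fold in 231BrM and 4.42-fold in the other line, with an interaction of 1.48 (standard error 0.119, 95% interval 1.21 to 1.75, limma adjusted p = 0.0114). That value belongs to the brightest probe set. The other CXCL1 probe set tested gave 10.79 and 10.78, then 9.92 and 9.82 in 231BrM, and 9.15 and 9.13, then 8.40 and 8.33 in SKBrM3. Its changes were -0.92 and -0.78 and its interaction was -0.14, so the line dependence of CXCL1 holds in 1 of the 2 probe sets. Averaging the probe sets gave 0.67 with a limma adjusted p of 0.152, which ends the call.

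CXCL2, also a CXCR2 ligand, gave 10.15 and 10.22 in 231BrM, 9.06 and 9.07 with doxycycline, 9.23 and 9.37 in SKBrM3, and 6.97 and 6.94 with doxycycline. Treated 231BrM cells stood just under the untreated SKBrM3 arrays, and the treated SKBrM3 arrays were far below all others. The falls were 2.17-fold and 5.07-fold and the interaction was 1.22 (standard error 0.113, 95% interval 0.97 to 1.48, limma adjusted p = 0.0114). A further CXCL2 probe set gave 1.42, and the others of CXCL8 gave 1.76 and 1.90. CXCL1, CXCL2 and CXCL3 are close paralogues, and signal shared between their probes was not tested.

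Leaving out 1 of the 8 arrays at a time gave interactions of 1.22 to 1.33 for CXCL8, 1.39 to 1.56 for CXCL1 and 1.16 to 1.29 for CXCL2. CXCL8 and CXCL2 lost the call in 6 of these 8 fits and CXCL1 in 5, with limma adjusted p up to 0.171. The kept calls were those without either 231BrM array with doxycycline, and for CXCL1 also without the second treated SKBrM3 array.

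**Figure D1:**
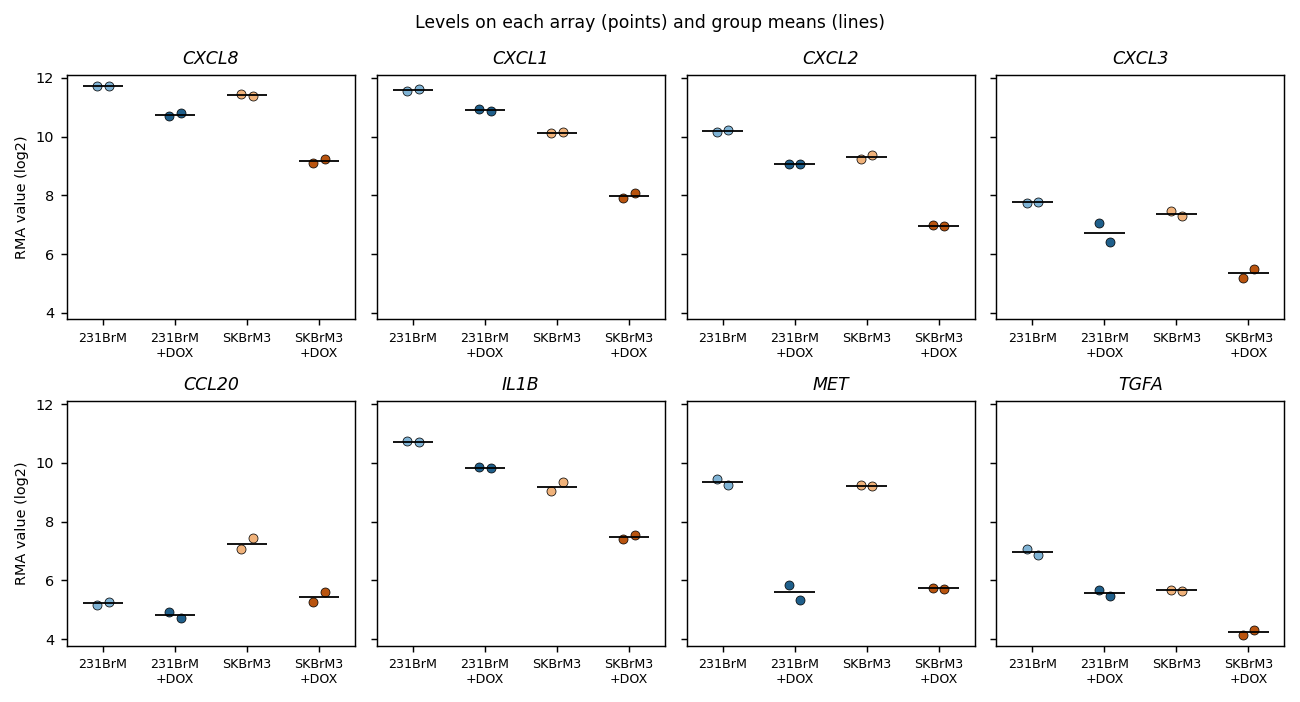
Log2 RMA value of CXCL8, CXCL1, CXCL2, CXCL3, CCL20, IL1B, MET and TGFA on each of the 8 arrays, by group, with points for arrays and lines for group means. The treated SKBrM3 arrays are lowest for CXCL8 (9.10 and 9.22), CXCL1 and CXCL2, while MET falls to a similar level in both lines.

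Relatives and partners of these chemokines had interactions of the same sign that did not pass. CXCL3 gave 7.75 and 7.78 in 231BrM, 7.04 and 6.40 with doxycycline, 7.46 and 7.30 in SKBrM3, and 5.20 and 5.50 with doxycycline. Its treated 231BrM arrays lay well apart, with replicate 1 the higher, and its interaction was 0.99 (95% interval 0.38 to 1.59, limma adjusted p = 0.28). CCL20, a ligand of CCR6, gave 5.17 and 5.27, then 4.91 and 4.73 in 231BrM, and 7.05 and 7.43, then 5.25 and 5.60 in SKBrM3. The gap between the lines (231BrM minus SKBrM3) went from -2.02 before doxycycline to -0.61 with it (interaction 1.41, 95% interval 0.93 to 1.90, limma adjusted p = 0.149). All its 231BrM values lay below all those of SKBrM3 without doxycycline, and near the filter level. IL1B, which encodes interleukin-1 beta, gave 10.75 and 10.70, then 9.85 and 9.81 in 231BrM, and 9.04 and 9.34, then 7.41 and 7.54 in SKBrM3. It was higher in 231BrM on every array of each condition, and its interaction was 0.82 (95% interval 0.47 to 1.17, limma adjusted p = 0.196).

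For the target of the hairpin the interval of the interaction includes 0. MET gave 9.45 and 9.26 in 231BrM, 5.85 and 5.35 with doxycycline, 9.26 and 9.20 in SKBrM3, and 5.76 and 5.71 with doxycycline. The treated arrays of the lines overlapped, and the untreated ones met at 9.26. The interaction was -0.26 (95% interval -0.74 to 0.21, limma adjusted p = 0.673), and the other MET probe sets gave 0.59, 0.07 and 0.08, so its sign depends on the probe set.

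The log2 scale compares proportions. On the unlogged scale, the signal of CXCL1 fell by 1126 units in 231BrM and 867 in the SKBrM3-labelled arrays, and that of CXCL2 by 628 and 507, so in units of signal the fall was larger in 231BrM. The same order held for IL1B (784 and 409). For CXCL8 the falls were 1677 and 2171 and for CXCL3 109 and 126, larger in the SKBrM3-labelled arrays on both scales. CCL20 fell by 9.07 and 109 units.

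**Figure D2:**
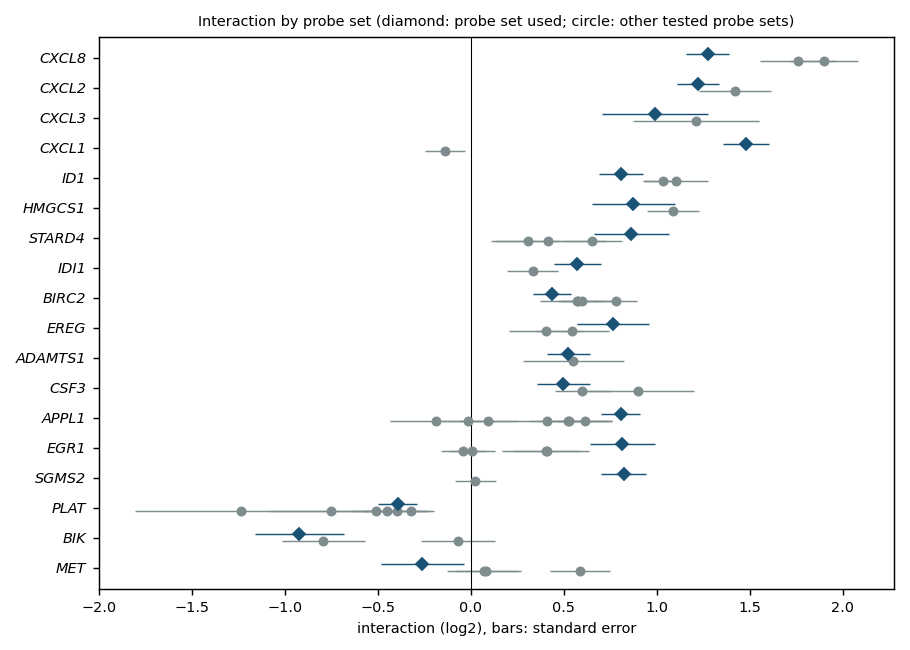
Interaction (log2) by probe set for some of the named genes with more than 1 tested probe set, as diamonds for the probe set used and circles for the others, with bars of 1 standard error. All CXCL8 and CXCL2 probe sets lie above 1, whereas those of CXCL1 lie at 1.48 and -0.14.

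Of 25 inflammatory cytokines and chemokines 19 were tested. The 3 called genes are among them. At an unadjusted p under 0.05, 8 were positive and 3 negative, against 6.86% and 4.31% of all genes. The median interaction was 0.16, against 0.03 over all genes tested. Without 231BrM doxycycline replicate 1 the counts were 8 and 4 (over all genes 7.42% and 10.8%). This list was chosen with earlier results of these data known and is not independent evidence. CCL2, a monocyte attractant, gave 7.47 and 7.52, then 7.51 and 6.80 in 231BrM, and 6.78 and 6.77, then 5.28 and 5.50 in SKBrM3. Its treated 231BrM arrays disagreed by more than their distance to the controls, and its interaction was 1.05 (limma adjusted p = 0.277), or 0.69 without replicate 1. IL1A, the other interleukin-1 gene, ran the opposite way: 8.37 and 8.47, then 7.75 and 7.19 in 231BrM, and 4.25 to 4.49 on all SKBrM3-labelled arrays, around the filter level (interaction -0.86, limma adjusted p = 0.28). IL18 and IL11 had -0.55 and -0.44, and CSF3, a granulocyte growth factor, had 0.50. CCL2, IL1A, IL18, IL11 and CSF3 did not pass, and apart from CSF3 these were chosen after their values were seen.

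Genes of cholesterol synthesis, which are driven together by the transcription factor SREBP2, were the list with the highest median. Of 26 genes 21 were tested and 0 passed in limma. At an unadjusted p under 0.05, 9 were positive and 1, PMVK, was negative (-0.30), against 6.86% and 4.31% of all genes. The median was 0.25 against 0.03 over all genes. Without 231BrM doxycycline replicate 1 the median was 0.13, against -0.02 over all genes. HMGCS1, the synthase that makes HMG-CoA, gave 6.45 and 6.68, then 6.60 and 6.18 in 231BrM, and 7.85 and 7.70, then 6.63 and 6.83 in SKBrM3. STARD4, a sterol carrier, gave 5.55 and 5.76, then 5.78 and 5.62 in 231BrM, and 6.75 and 6.45, then 5.66 and 5.91 in SKBrM3. In both, the untreated SKBrM3 arrays stood above the others and the treated ones reached the range of 231BrM or close to it. The gap between the lines (231BrM minus SKBrM3) went from -1.21 to -0.34 for HMGCS1 and from -0.95 to -0.08 for STARD4. Other probe sets gave 1.09 for HMGCS1 and 0.30 to 0.65 for STARD4. The interactions of those used were 0.87 (95% interval 0.40 to 1.35, limma adjusted p = 0.248) and 0.86 (0.44 to 1.29, limma adjusted p = 0.214). IDI1, an isomerase of the pathway, had 0.57, and the later enzymes MSMO1 and SQLE had 0.52 and 0.50, with changes in 231BrM of -0.04, -0.20 and 0.01. MSMO1, SQLE and PMVK were chosen after their values were seen.

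Targets of TGF-beta, BMP and YAP signalling made up the other list with many such genes. Of 24 tested, 0 passed in limma (median 0.13). At an unadjusted p under 0.05, 8 were positive and 1, THBS1, was negative, against 6.86% and 4.31% of all genes. Without 231BrM doxycycline replicate 1 the median was 0.08, against -0.02 over all genes. ID1, an inhibitor of differentiation and BMP target, gave 9.95 and 10.02, then 9.93 and 9.78 in 231BrM, and 10.65 and 10.57, then 9.65 and 9.70 in SKBrM3. The gap between the lines (231BrM minus SKBrM3) went from -0.62 to 0.18 (interaction 0.81, 95% interval 0.54 to 1.07, limma adjusted p = 0.134), and the other ID1 probe sets gave 1.03 and 1.10. limma-trend called it (adjusted p = 0.018). ID3 had 0.76, and TGFBR1, the type I TGF-beta receptor, had 0.78 (limma adjusted p = 0.191), with changes of -0.42 in 231BrM and -1.21 in SKBrM3. The mean of all TGFBR1 probe sets gave 0.32. ID2 had 0.71, but all its 231BrM values were under the filter level, so it was not expressed in both lines. THBS1, a secreted matrix protein, had -0.62, or -0.26 without replicate 1, and its treated 231BrM arrays read 10.57 and 11.27. ID3 and THBS1 were chosen after their values were seen.

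Among 24 NF-kB feedback and target genes, 3 had an unadjusted p under 0.05, all positive (6.86% of all genes), and 0 passed in limma. Their median interaction was 0.13, against 0.03 over all genes. It was 0.08 without 231BrM doxycycline replicate 1, against -0.02, and 0.17 without replicate 2, against 0.09. BCL2A1, an anti-apoptotic BCL2 relative, gave 8.74 and 8.78, then 8.56 and 8.27 in 231BrM, and 8.76 and 8.73, then 7.47 and 7.44 in SKBrM3. The lines were level before doxycycline (0.02) and 0.96 apart with it, and the interaction was 0.94 (95% interval 0.62 to 1.27, limma adjusted p = 0.149). The mean of all BCL2A1 probe sets gave 0.50. BIRC2, an inhibitor of apoptosis, and IER3 had 0.44 and 0.30. EREG, an EGF receptor ligand, had 0.76, and the immediate early gene EGR1 had 0.81. On the probe sets used, the changes were near 0 in 231BrM (0.10 and 0.03) and -0.66 and -0.78 in SKBrM3. Other probe sets changed in 231BrM by -0.49 and -0.02 for EREG and by -0.41 to -0.13 for EGR1. Their interactions were 0.40 and 0.54 for EREG and -0.04 to 0.41 for EGR1. BIK, a pro-apoptotic BCL2 family gene, had -0.92 (limma adjusted p = 0.249), at 6.90 and 6.41, then 7.99 and 7.76 in SKBrM3 against 5.61 to 6.05 over the 231BrM arrays. Its other probe sets gave -0.80 and -0.07.

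**Figure D3:**
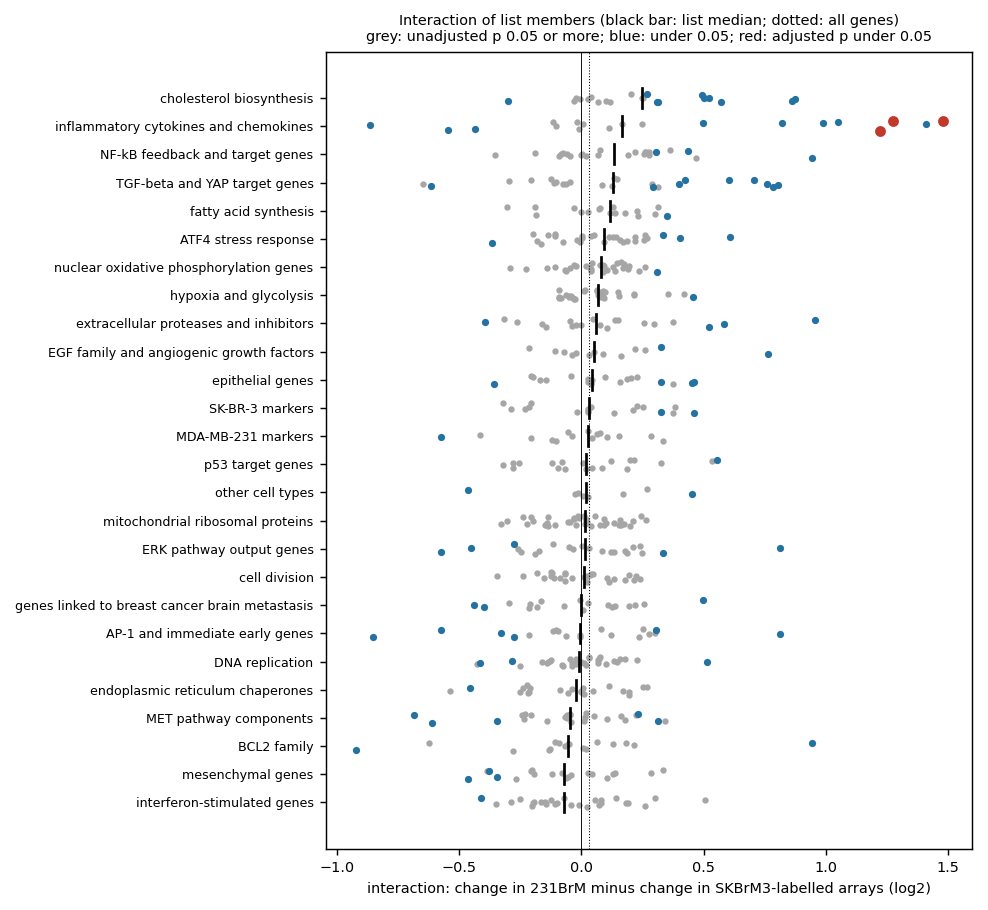
Interaction (log2) of each tested member of the gene lists, 1 row per list, coloured by p-value, with a black bar at the list median and a dotted line at the median over all genes (0.03). The cytokine list holds the 3 called genes, and the cholesterol list has the highest median (0.25).

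In the other lists 0 genes passed in limma, and the counts at an unadjusted p under 0.05, positive then negative, are to be read against 6.86% and 4.31% of all genes. They were 2 and 0 of 13 EGF family and angiogenic factors, 2 and 3 of 22 ERK output genes, 2 and 4 of 19 immediate early genes, and 2 and 3 of 25 MET pathway components, where PLCG1, a phospholipase recruited by receptor kinases, had -0.69. Metabolic lists gave 1 and 0 of 17 fatty acid synthesis genes (ACSL1, 0.35, or 0.23 without 231BrM doxycycline replicate 1), 1 and 0 of 31 hypoxia and glycolysis genes (the hexokinase HK2, 0.46, or 0.24 without that array), and 1 and 0 of 30 oxidative phosphorylation genes. Stress lists gave 3 and 1 of 29 ATF4 genes, with DDIT3 at 0.61, 0 and 1 of 22 chaperones, and 1 and 0 of 19 p53 targets, with CDKN1A at 0.56. Cell division (27 genes) and mitochondrial ribosomal proteins (39 genes) had 0 in either direction, with medians of 0.01 and 0.02, and DNA replication had 1 and 2 of 32. The BCL2 family gave 1 and 1 of 17, interferon-stimulated genes 0 and 1 of 27, proteases and inhibitors 3 and 1 of 20, and genes linked to brain metastasis 1 and 2 of 18. Epithelial genes gave 3 and 1 of 20, and mesenchymal genes 0 and 3 of 20, which were LOXL2, SNAI1 and COL1A1 (-0.35, -0.38 and -0.47). SNAI1 was not expressed in both lines, and COL1A1 lay near the filter level (4.36 to 5.04). Line markers gave 0 and 1 of 15 for MDA-MB-231 and 2 and 0 of 18 for SK-BR-3, and markers of other cell types 1 and 1 of 8.

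The counts of several of these lists moved with the treated 231BrM array left out. They are to be read against the shares over all genes given above for the same fits. Mitochondrial ribosomal proteins had 0 and 7 without replicate 1, and 7 and 1 without replicate 2. Oxidative phosphorylation genes had 1 and 3, then 7 and 0, and interferon-stimulated genes had 0 and 5, then 5 and 2. Genes linked to brain metastasis had 1 and 5, then 5 and 1, p53 targets 2 and 5, then 4 and 0, and fatty acid synthesis genes 0 and 1, then 6 and 0. In each of these 6 lists more members were negative without replicate 1 and more were positive without replicate 2, as over all genes.

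Among single genes that did not pass, the smallest p-value after the 3 chemokines belonged to FCGR2A, an Fc receptor gene. It gave 6.01 and 5.91, then 6.50 and 6.55 in 231BrM, and 6.44 and 6.61, then 6.06 and 5.88 in SKBrM3. The values crossed, higher with doxycycline in 231BrM and lower in SKBrM3, with changes of 0.57 and -0.56 and an interaction of 1.12 (95% interval 0.81 to 1.43, limma adjusted p = 0.072). Only 1 of the 4 FCGR2A probe sets was tested, and the mean of all of them gave 0.46. APPL1, an endosomal adaptor, gave 7.97 and 8.02, then 7.65 and 7.61 in 231BrM, and 8.39 and 8.34, then 7.17 and 7.21 in SKBrM3. It went from higher to lower in SKBrM3 relative to 231BrM (interaction 0.81, limma adjusted p = 0.0881), but its other 7 probe sets ran from -0.19 to 0.62. SGMS2, a sphingomyelin synthase, had 0.82 (limma adjusted p = 0.134) and its other probe set had 0.02. G6PC1, ROPN1B and PLCD4 had 0.82, 0.88 and 0.80. The mean of all ROPN1B probe sets gave 0.45. The values of G6PC1 lay around the filter level (4.21 to 4.84), and PLCD4 was not expressed in both lines.

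On the negative side the smallest p-value belonged to EHHADH, which encodes a peroxisomal enzyme that oxidises fatty acids. It gave 5.39 and 5.21, then 4.27 and 4.07 in 231BrM, and 3.70 to 3.84 in SKBrM3. All its SKBrM3-labelled values were under the filter level, so it was not expressed in both lines (interaction -1.03, limma adjusted p = 0.0881). The mean of all EHHADH probe sets gave -0.54. SLC43A1, an amino acid transporter, gave 5.03 to 5.12 on all 231BrM arrays, and 5.84 and 5.97, then 6.85 and 6.65 in SKBrM3. It rose in SKBrM3 (limma adjusted p = 0.00307) with a change of 0.01 in 231BrM, and its interaction was -0.83 (limma adjusted p = 0.186). SRC, a kinase that acts downstream of MET, had -0.61, with changes of -0.25 and 0.36, and GPX3, a secreted glutathione peroxidase, had -0.63, with changes of -0.34 and 0.29. GNGT2, FAM83E, FAM222B, ZNF790, C1QL1 and SCAMP4 lay between -0.70 and -0.56, and of these GNGT2 was not expressed in both lines. The other C1QL1 probe set tested gave 0.29 and those of FAM222B -0.14 to 0.09, and the means of all probe sets were -0.14 for each gene.

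**Figure D4:**
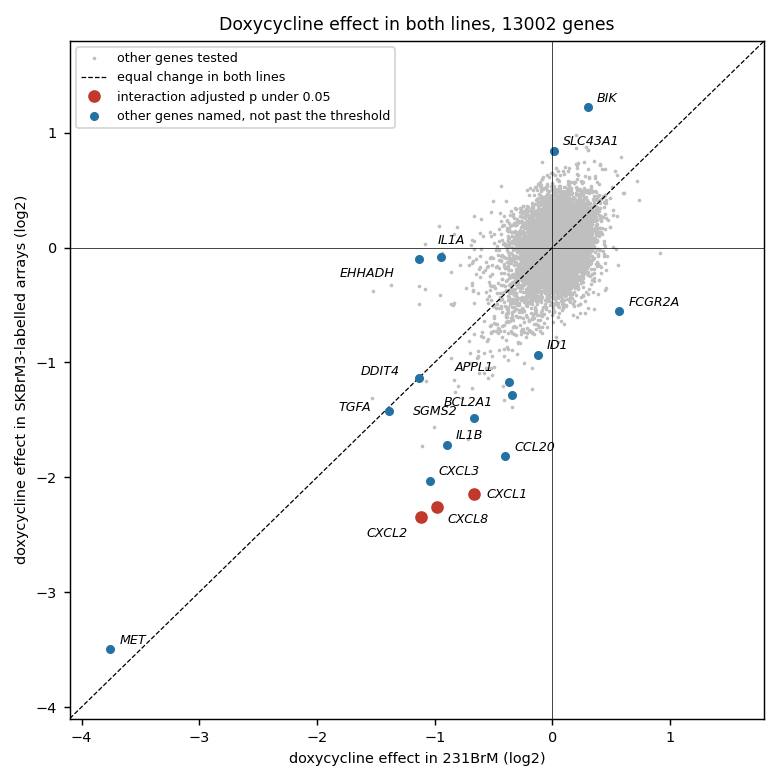
Doxycycline effect (log2) in 231BrM on the horizontal axis and in the SKBrM3-labelled arrays on the vertical axis for 13002 genes, with the line of equal change dashed. CXCL8, CXCL1 and CXCL2, in red, lie below the line, and MET, TGFA and DDIT4 lie near it.

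Genes that fell in both lines are set out by the 95% interval of their interaction, which is the difference of the effects that chose them. Of 13002 genes 21 fell in 231BrM (0.162%) and 296 in SKBrM3 (2.28%), where 150 rose (1.15%), and 20 fell in both. For 8 of the 20 the 95% interval of the interaction includes 0, which does not show that the falls were equal. TGFA, an EGF receptor ligand, gave 7.06 and 6.86, then 5.68 and 5.46 in 231BrM, and 5.69 and 5.63, then 4.16 and 4.33 in SKBrM3. Its lines were 1.30 apart before doxycycline and 1.33 with it, with an interaction of 0.03 (95% interval -0.32 to 0.38). DDIT4, an inhibitor of mTORC1 signalling, changed by -1.14 in each line (interval of the difference -0.45 to 0.46). The other 12 had intervals above 0, from C21orf91 at 0.31 to CXCL1 at 1.48, with IL1B and SGMS2 at 0.82. These intervals are not adjusted for the number of genes, and 3 of the 20 passed the interaction test. TGFA, DDIT4 and C21orf91 were chosen after their values were seen.

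**Figure D5:**
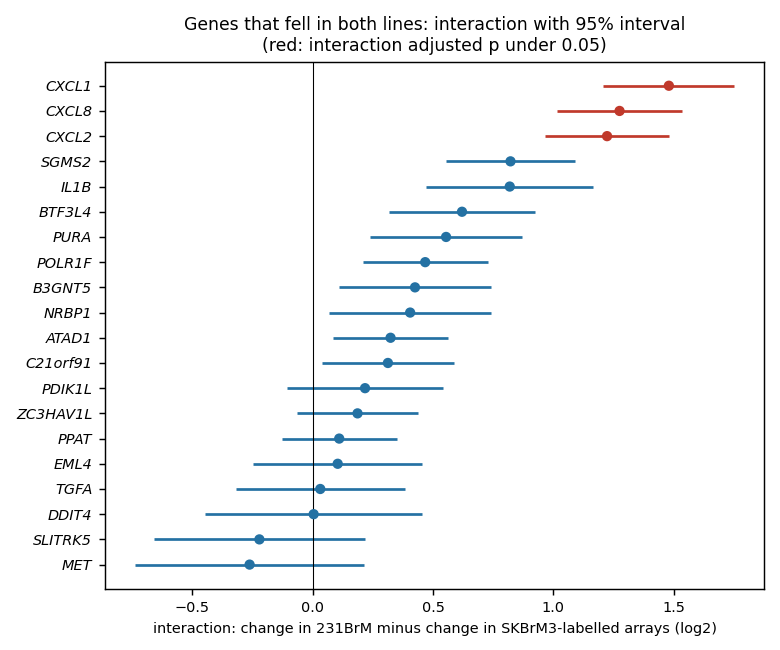
Interaction (log2) with its 95% interval for the 20 genes that fell with doxycycline in both lines, called genes in red. The intervals of 8 genes, among them TGFA and DDIT4, include 0, and those of the other 12 lie above it.

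The precision of 2 arrays a group bounds the rest. Among genes expressed in both lines the median standard error of an interaction was 0.137, and 98.04% of 95% intervals lay within 1 log2 unit of 0, while 59.23% lay within 0.5. Only 11 genes had an interaction above 1 in size, 7 positive and 4 negative. The 7 were CXCL1, CCL20, CXCL8, CXCL2, FCGR2A, BHLHE40 (1.06) and CCL2. The 4 were MIX23, NOG, HNRNPL and H2AC20, from -1.15 to -1.04, and each was lowest, among all 8 arrays, on 231BrM doxycycline replicate 1: HNRNPL, an RNA-binding protein, read 6.23 there and 8.24 on replicate 2, and the BMP antagonist NOG read 7.01 and 9.66. BHLHE40, MIX23, NOG, HNRNPL and H2AC20 were chosen after their values were seen.

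That array stands apart. Its actin control probe sets had a 3' minus 5' signal of 1.24, against 0.46 to 0.59 on the others, and 68 genes differed over 2-fold between the treated 231BrM arrays, against 0 or 1 in the other groups. Its part in the interactions was not tested, but without it CXCL8, CXCL1 and CXCL2 were called with 2 further genes, EHHADH and NIPSNAP1 (-1.03, chosen after its value was seen), and without the other treated 231BrM array 473 genes were called. Among genes with a mean level of at most 5, 14.6% had an unadjusted p under 0.05, against 4.91% above 10.

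The arrays labelled SKBrM3 did not show a high level of ERBB2, which is amplified in SK-BR-3. ERBB2 read 6.86 there and 6.82 in 231BrM, and its neighbour GRB7 5.01 and 5.13. The mesenchymal genes VIM and AXL were alike in both (12.7 and 12.9, 11.5 and 11.5), and CDH1 was under the filter level in both. Of the MDA-MB-231 markers 3 were higher in 231BrM by more than 1 log2 unit and 0 in the SKBrM3-labelled arrays. These were SPARC (4.21 and 7.12), S100A4 (4.37 and 6.77) and IL6 (5.25 and 6.68). Of the SK-BR-3 markers 3 were higher in 231BrM by that margin, among them KRT19 (6.77 and 9.38). In the SKBrM3-labelled arrays 1 was higher, FOXA1 (6.11 and 4.81). Of the MDA-MB-231 markers 15 of 15 were above the filter level in 231BrM and 13 of 15 in the SKBrM3-labelled arrays, and of the SK-BR-3 markers 18 of 23 in each. The summed unlogged signal of the MDA-MB-231 markers was 25168 to 26796 over the 231BrM arrays and 21423 to 21616 over the others. That of the SK-BR-3 markers was also higher in 231BrM, at 6047 to 6274, than in the SKBrM3-labelled arrays, at 4031 to 4260. Of 19 markers of fibroblasts, endothelium, leukocytes and astrocytes 7 and 8 were above the filter level, and PTPRC, LYZ, CDH5 and LUM were not in either.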

How the data were processed

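Total RNA of 8 samples was hybridised to single-colour Affymetrix arrays. The deposited values are log2 signals, 1 per probe set and array, made by the authors with RMA, per the submitters' processing notes. Neither its version nor a genome build is given in the sources used here. Scanner signals were not analysed here, so depth in the sense of background is unknown and the number of arrays limits the precision. No per-sample column was left unused (0).

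Probe sets with several genes (1327), without a gene name (2713) and controls (93) were left out, and 45172 symbols were updated by gene ID through RefSeq (GRCh38.p14). Each gene was read from its brightest probe set, by the mean of the 8 arrays. The filter level is the 40th percentile of all values. limma 3.58.1 (R 4.3.3, lmFit and eBayes) was fitted to 4 group means over all 8 arrays, tests were two-sided, with Benjamini-Hochberg adjustment over 13002 genes. Steps were tested on simulated data.

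Named genes are 7 fixed ones (MET, CXCL8, CXCL1, CXCL2, CXCL3, CCL20, IL1B), genes called, up to 3 members per list with an unadjusted p under 0.05, and, since fewer than 10 genes were called, the 10 smallest p-values per direction. The members and lists were chosen with earlier results of these data known. Lists are described by counts and medians. Alternatives were the replicate block, array weights, filters, probe set rules, limma-trend, centring and leaving out each array. The unlogged signal, the other probe sets and the list counts and medians without an array were added after seeing the data.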

Additional observations from a re-analysis of the deposited data

Results flagged for a closer look

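The doxycycline effect differed between the lines by the interaction test for CXCL8 (1.27), CXCL1 (1.48) and CXCL2 (1.22), in log2 units and positive where 231BrM fell less. For CXCL1 the second probe set tested gave -0.14. Each of the 3 calls was lost in most of the fits that left out 1 array. With every probe set tested on its own, 0 genes passed. In unlogged signal the falls of CXCL1 and CXCL2 were larger in 231BrM.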

How the results depend on the processing

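With the replicate number as a block, the fit called 3 genes over all genes and 3 expressed in both lines, as without it. Differences between replicates 1 and 2 correlated at 0.24 between untreated and treated 231BrM, and at -0.01 between untreated and treated SKBrM3. The labels do not say that numbers pair samples. Array weights, no filter and the 60th percentile filter also called 3. The weights were equal within each group (0.37 for both treated 231BrM arrays), so they could not set replicate 1 apart from replicate 2. The mean of all probe sets called 2, without CXCL1 (0.67). limma-trend and centred arrays each called 6 genes, 5 of them expressed in both lines. With every probe set tested alone 0 passed. Leaving out 1 array called 0 to 473 genes, and 0 to 444 among those expressed in both lines: 0 without either 231BrM control, either SKBrM3 control or SKBrM3 doxycycline replicate 1, 1 without SKBrM3 doxycycline replicate 2, 5 without 231BrM doxycycline replicate 1, and 473 without its replicate 2. Leave-one-out fits leave 1 array in a group and assume that it varies like the others.

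The sign turned for MET (0.17) and CLDN1 (0.0049) with the mean of all probe sets. Of 40 named genes with other tested probe sets, 13 had at least 1 of the opposite sign: MET (0.59, 0.073 and 0.083), CXCL1 (-0.14), APPL1, FAM222B, C1QL1, NRG1, EGR1, SPRY1, PXN, NDUFS1, CLDN1, LOXL2 and FOSL1. On the unlogged scale, the fall in SKBrM3 minus that in 231BrM was -258 for CXCL1, -121 for CXCL2 and -375 for IL1B. Their untreated signal was higher in 231BrM than in SKBrM3 (CXCL1 3045 and 1121, CXCL2 1164 and 631, IL1B 1693 and 587). What sets these levels was not tested. Over the other settings for the named genes, 936 values kept direction and side of the threshold, 43 passed newly, 18 no longer passed and 2 reversed. Only CXCL8, CXCL1 and CXCL2 had a call to lose, so the 18 that no longer passed are theirs. For the other named genes, a value that kept its side passed in neither fit.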
